A study of Mus musculus with 16 samples.

Results

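Livers of adult mice carrying 1 null copy of Gli2 were compared with wild-type livers after 12 weeks on a high-fat diet. The comparison used the 4 arrays labelled Gli2_Het and the 4 labelled Gli1_WT on that diet, so 8 of the 16 arrays of the series, and covered the 19938 genes for which a probe set carried a single symbol. The samples were taken by their genotype and diet labels, and the rule for taking them uses no expression value. The label Gli1_WT was read as wild type because the study's design names only Gli2 heterozygous null and wild-type animals. The other 8 animals, 4 of each genotype, had the control diet and are used below only to set the genotype difference beside that on the control diet. All 16 samples were total RNA from whole liver, and the study's design counts 16 animals, so 1 for each array. Strain, sex, age beyond adult and the composition of the diets were not given in the sources used here. The allele is described as a heterozygous null with no tissue-specific deletion named, so 1 intact copy remains and the model is not limited to liver. Arrays are called by group and a number given in accession order, and that number pairs no animals.

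Hedgehog signalling starts when a secreted ligand (Shh, Ihh or Dhh) binds the receptor Ptch1, which otherwise holds the membrane protein Smo inactive. Active Smo lets the zinc finger factors Gli2 and Gli3 escape processing into repressors, and Gli2 is the main activator of target genes such as Gli1, Ptch1 and Hhip. Healthy adult hepatocytes show little pathway activity, whereas in fatty and injured liver the ligands come mainly from stressed hepatocytes and bile duct cells and act on stellate and progenitor cells. The study asked how attenuated hedgehog signalling bears on diet-induced fatty liver.

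The values were log2 RMA levels, so a difference of 1 is a doubling of signal. Over all tested genes the 8 arrays correlated pairwise at r = 0.993 to 0.997, with medians of 8.26 to 8.32. Het_control 2, an array outside the comparison, stood apart from the high-fat arrays, at r = 0.961 to 0.973 and with an interquartile range of 1.95 against 2.40 to 2.60. The other control-diet arrays correlated with the high-fat arrays at r = 0.9905 to 0.9975, with interquartile ranges of 2.40 to 2.45. Control-diet values below are given with Het_control 2 and, in the same or the next sentence, without it, save for the difference of Fabp7. The mean level of 11 hepatocyte markers was 13.62 to 13.68 in wild type and 13.63 to 13.70 in heterozygotes, so the labelled tissue carried its defining genes at a like level in both groups. A number within the sample titles, whose meaning the labels do not give, is 30 for both WT_HFD 3 and WT_HFD 4, and 39 for both Het_HFD 2 and Het_HFD 3. No label says whether animals were housed or sampled together. The limma p-values treat the 4 arrays of each group as independent. They could be too small if arrays that share a number are not independent.

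Ctse and Sik1 were higher in heterozygous than in wild-type liver on high-fat diet, and no gene was called lower. These 2 genes of 19938, or 0.0100%, passed an adjusted p of 0.05 in limma with Benjamini-Hochberg adjustment. At an unadjusted p under 0.05, 838 genes were higher (4.20%) and 551 lower (2.76%). The groups of 4 did not overlap for 434 genes in the upward direction (2.18%) and 314 in the downward direction (1.57%), together 3.75% of all genes. Counts of list members given below are to be read beside these shares of all genes. The median difference over all genes was 0.007, the median size of a difference was 0.051 and the median standard error was 0.066, so most differences were smaller than their error.

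For Gli2 itself no difference between the genotypes was detectable. Its level was 7.40, 7.54, 7.57 and 7.54 in the wild-type arrays and 7.61, 7.46, 7.50 and 7.57 in the heterozygous arrays. The groups overlapped throughout. The difference was 0.02 (SE 0.06, 95% interval -0.11 to 0.15, limma adjusted p = 0.976). The Gli2 levels lay below the array medians of 8.26 to 8.32, and without detection calls they are not shown to lie above background. Gli2 was represented by 1 probe set, and where its probes lie relative to the null allele was not given in the sources used here, so the gene could not serve as a check of the genotype labels. Gli1, the target most often used as a readout of pathway activity, was at 8.29, 8.22, 8.29 and 8.25 in wild type and 8.30, 8.26, 8.37 and 8.36 in heterozygotes. The Gli1 groups overlapped, and the difference was 0.06 (SE 0.05, 95% interval -0.05 to 0.17, limma adjusted p = 0.872).

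**Figure D1:**
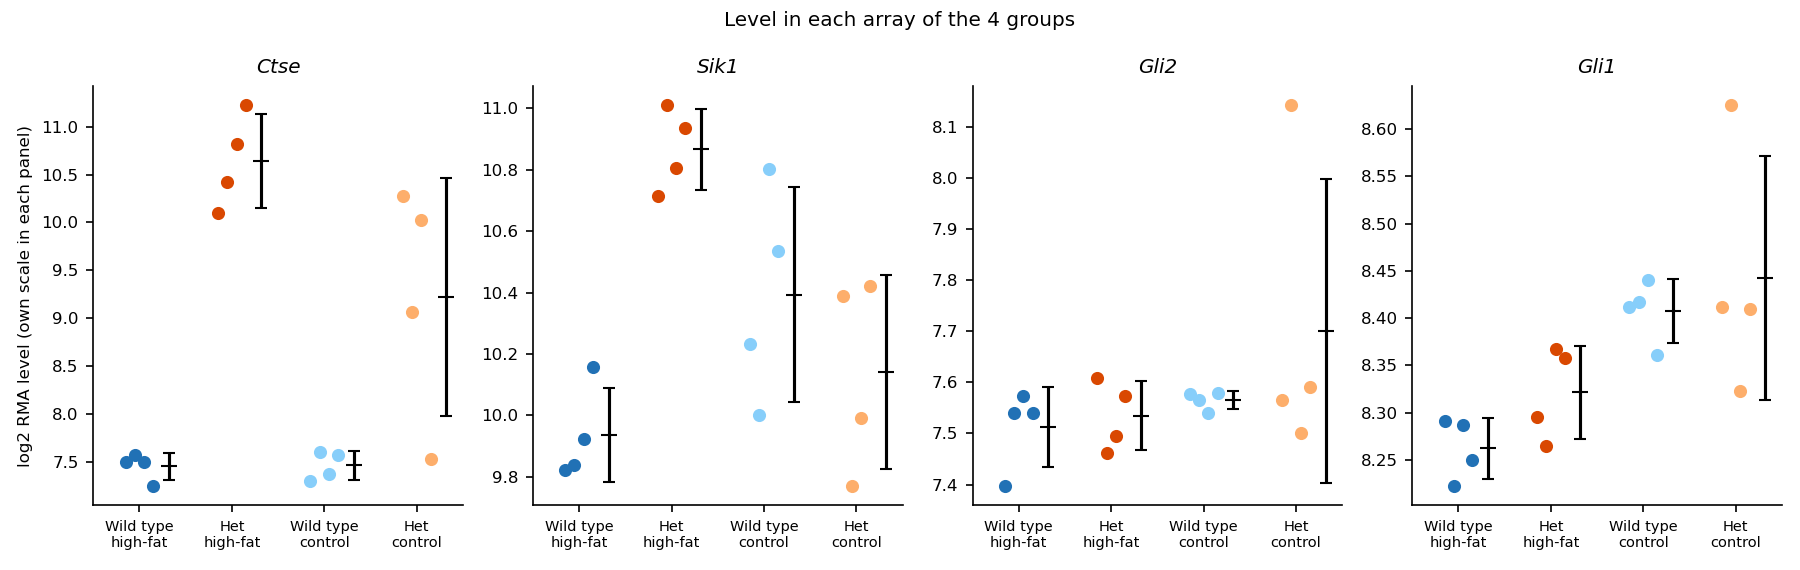
Log2 RMA level (vertical axes, own scale in each panel) of Ctse, Sik1, Gli2 and Gli1 in each array of the 4 genotype and diet groups; bars give the mean and SD of 4 arrays. The heterozygous high-fat arrays sit between 10.09 and 11.23 for Ctse and between 10.71 and 11.01 for Sik1, above every wild-type high-fat array, while for Gli2 and Gli1 the genotypes overlap.

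Of 28 measured hedgehog genes, 18 had a difference above 0 and 10 below, none was called, and the median was 0.03 against 0.007 over all genes. Above 0 lay 53.8% of all genes. The ligands Shh, Ihh and Dhh differed by 0.11 (SE 0.07), 0.06 (SE 0.06) and 0.03 (SE 0.06). Hhat, which attaches palmitate to the ligands, differed by -0.01, Disp1, which releases them, by 0.003, and Scube2, which carries them, by 0.10. Among receptors and co-receptors, Ptch1 had the lowest value of the list. Ptch1 was at 10.49, 10.33, 10.55 and 10.59 in wild type and 10.48, 10.38, 10.25 and 10.16 in heterozygotes. Het_HFD 3 and 4 lay below all wild-type arrays and Het_HFD 1 and 2 within their range, a difference of -0.17 (SE 0.08, limma adjusted p = 0.722). The signal transducer Smo differed by -0.11 (SE 0.07) and the decoy receptor Hhip by -0.05 (SE 0.08). The co-receptors Cdon and Boc differed by 0.05 and -0.01. Gas1, a membrane-anchored co-receptor, had the highest value of the list, at 9.51, 9.28, 9.57 and 9.41 against 9.54, 9.62, 9.71 and 9.79. Only Het_HFD 1 lay within the wild-type range of Gas1, and the difference was 0.22 (SE 0.07, limma adjusted p = 0.584).

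Inside the cell, Gli3, the chief repressor, differed by -0.05 (SE 0.08) and Sufu, which holds Gli proteins in the cytoplasm, by 0.03 (SE 0.06). The ciliary regulators Kif7, Stk36 and Gpr161 differed by -0.04, 0.03 and 0.01, and Spop, an adaptor for Gli degradation, by -0.06. Evc2, which binds active Smo at the cilium, was the hedgehog gene whose groups did not overlap, at 7.93 to 8.02 in wild type and 7.80 to 7.92 in heterozygotes. Over all genes, 1.57% had groups apart in the downward direction. The Evc2 difference was -0.12 (SE 0.05, limma adjusted p = 0.700), while its partner Evc differed by 0.06. Among targets, Ccnd1, Bcl2, Foxf1, Foxl1 and Nkx2-2 differed by 0.06, 0.12, -0.02, 0.03 and 0.11. Sfrp1, a secreted Wnt antagonist, was at 7.62, 7.38, 7.39 and 7.57 in wild type and 7.56, 7.79, 7.67 and 7.81 in heterozygotes. Het_HFD 1 alone fell within the wild-type range of Sfrp1, a difference of 0.22 (SE 0.08, limma adjusted p = 0.596). Gas1, Sfrp1 and Evc2 were the members with an unadjusted p under 0.05, so 2 of 28 upward and 1 of 28 downward. These shares of 7.14% and 3.57% stand against 4.20% and 2.76% of all genes. All Sfrp1 and Evc2 levels lay below the array medians of 8.26 to 8.32, and without detection calls are not shown to lie above background.

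Ctse encodes cathepsin E, an intracellular aspartic protease known from stomach epithelium and from antigen-presenting and other blood cells. It was at 7.50, 7.57, 7.49 and 7.25 in wild type (7.45 ± 0.14, SD, n = 4) and at 10.09, 10.42, 10.82 and 11.23 in heterozygotes (10.64 ± 0.49, SD, n = 4). The highest wild-type array (7.57) and the lowest heterozygous array (10.09) were far apart. The difference was 3.19 (SE 0.19, 95% interval 2.78 to 3.60), a 9.12-fold higher signal (limma adjusted p = 2.88e-05). With any 1 array left out it ranged from 2.99 to 3.37. No detection calls were used, so the wild-type level is not shown to lie above background, and against a level at background the fold would be a lower bound. On the control diet Ctse was at 7.30, 7.60, 7.38 and 7.57 in wild type and at 10.27, 9.06, 10.03 and 7.53 in heterozygotes. Het_control 4 was thus at the wild-type level and the other 3 heterozygous arrays were above every wild-type array, a difference of 1.76 (SE 0.48, limma adjusted p = 0.577), or 1.82 without Het_control 2. Over both diets 7 of 8 heterozygous arrays exceeded all 8 wild-type arrays, which spanned 7.25 to 7.60. The difference between the diets in the genotype effect was 1.43 (SE 0.57, limma adjusted p = 0.558), or 1.37 without Het_control 2 (0.539), not past the threshold.

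Other genes with a cathepsin symbol (Cts and a letter) did not show the separation seen for Ctse. The 16 measured differed by -0.08 to 0.22, none was called and none had an unadjusted p under 0.05. They were taken by symbol, not by protease class. Among the 15 listed markers of gallbladder and gut, of which Ctse is 1, Ctse alone was called or had an unadjusted p under 0.05. Of the 15, 9 were above 0 and 6 below, and the median was 0.03. Lgals4, Slc5a1 and Muc2, an epithelial lectin, a glucose transporter and an intestinal mucin, differed by -0.19 (SE 0.10), -0.14 (SE 0.08) and -0.10 (SE 0.06).

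Ctse lies on chromosome 1, as Gli2 does, with 62 tested genes between them in the gene order of RefSeq (GRCm38.p6). The genes around Gli2 were therefore read in order. Of the 199 tested genes within 100 places of Gli2 on either side, leaving out Gli2 and Ctse, 18 had an unadjusted p under 0.05 (9.05%, against 6.97% of all genes in either direction) and none was called. Within 50 places the count was 11 of 100, and within 200 places it was 33 of 399 (8.27%). Around Ctse it was 9 of 100 within 50 places, 22 of 200 within 100 (11%) and 39 of 400 within 200 (9.75%). With 62 tested genes between Ctse and Gli2, these windows share genes with those around Gli2, so the counts are not those of a separate region. Near Ctse, Pm20d1, which makes N-acyl amino acids, differed by 0.24 (SE 0.06) and Avpr1b, a vasopressin receptor, by -0.15 (SE 0.06). After Ctse, the genes with the lowest and highest difference within 200 places of Gli2 were Rgs16 at -0.91 and Mogat1 at 0.44.

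**Figure D2:**
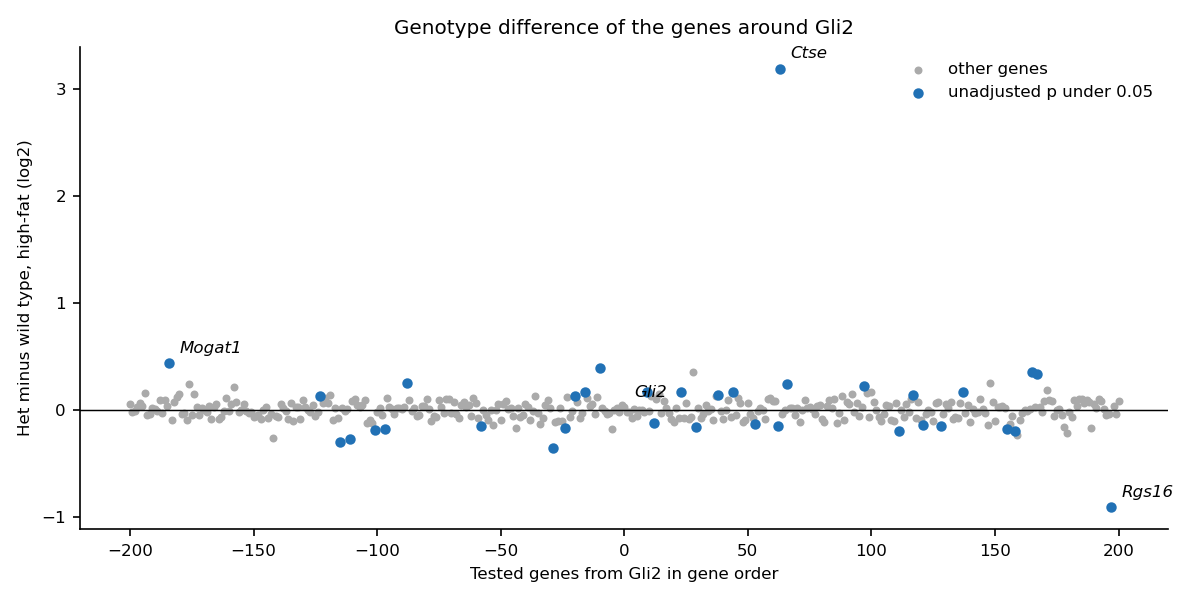
Difference between genotypes on high-fat diet (log2, vertical axis) for tested genes of chromosome 1, by the number of tested genes from Gli2 (horizontal axis); blue points have an unadjusted p under 0.05. Ctse, at 3.19, stands alone above genes that lie between -0.91 and 0.44.

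Sik1 encodes salt-inducible kinase 1, which is induced by cyclic AMP and in hepatocytes restrains the CREB coactivators that drive gluconeogenic genes. It was at 9.82, 9.84, 9.92 and 10.16 in wild type (9.94 ± 0.15, SD, n = 4) and at 10.71, 11.01, 10.81 and 10.94 in heterozygotes (10.87 ± 0.13, SD, n = 4). All 4 heterozygous arrays were above all 4 wild-type arrays. The difference was 0.93 (SE 0.09, 95% interval 0.74 to 1.12), a 1.91-fold higher signal (limma adjusted p = 0.00198). With any 1 array left out it was 0.88 to 1.01 and stayed past the threshold. The call was lost when the spread was estimated over all 16 arrays (limma adjusted p = 0.137) and when all probe sets were tested (0.0547). On the control diet, where its SDs were 0.35 and 0.32, Sik1 was at 10.23, 10.00, 10.80 and 10.54 in wild type and 10.39, 9.77, 9.99 and 10.42 in heterozygotes. Those groups overlapped, and the difference was -0.25 (SE 0.19, limma adjusted p = 0.579), or -0.13 (SE 0.18) without Het_control 2. The difference between the diets in the genotype effect on Sik1 was 1.18 (SE 0.23), with a limma adjusted p of 0.240, or 1.06 without Het_control 2 (0.221), not past the threshold.

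Because only 2 genes were called, the 22 next by p-value whose groups did not overlap are given as values: 10 with differences of 0.29 to 0.62 and 12 with differences of -0.24 to -1.57, and with limma adjusted p-values of 0.133 to 0.329. All 22 were chosen on this contrast, so their separation is no finding. Among the 10 higher, Rel, an NF-kappaB subunit of immune cells, was at 9.56, 9.51, 9.58 and 9.62 in wild type and 9.88, 10.19, 10.05 and 9.99 in heterozygotes, a difference of 0.46 (SE 0.07, limma adjusted p = 0.133). Nr4a1, an orphan nuclear receptor and immediate early gene, was at 7.82, 7.90, 7.90 and 7.93 against 8.15, 8.27, 8.46 and 8.56. The Nr4a1 difference was 0.47 (SE 0.08), and Tob1, an antiproliferative adaptor of mRNA deadenylation, differed by 0.37 (SE 0.06). Il1b, the inflammatory cytokine interleukin 1 beta, was at 7.74, 7.71, 7.83 and 8.05 against 8.28, 8.27, 8.44 and 8.83. Il1b differed by 0.62 (SE 0.12), and WT_HFD 4 and Het_HFD 4 were the highest of their groups. Cd79a, part of the B cell receptor, differed by 0.43 (SE 0.08), Ms4a8a, a membrane protein of the CD20 family, by 0.29 (SE 0.05) and Mcm5, a subunit of the replicative helicase, by 0.29 (SE 0.05). Chst2, a sulfotransferase that modifies glycans, differed by 0.29 (SE 0.05), Lonrf1 by 0.37 (SE 0.07) and Fam47e by 0.43 (SE 0.08).

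Of the 12 lower genes, Sult3a1, an amine sulfotransferase, had the largest difference, at 10.44, 11.59, 10.02 and 9.70 in wild type and 8.83, 9.25, 8.49 and 8.92 in heterozygotes. WT_HFD 2 was the highest of these arrays, and the difference was -1.57 (SE 0.32, limma adjusted p = 0.302). Ces3b, a carboxylesterase of the endoplasmic reticulum, was at 12.80, 13.08, 12.63 and 12.63 against 12.39, 12.20, 12.07 and 12.28, a difference of -0.55 (SE 0.10). It was the 1 gene of the 22 whose groups did not overlap on the control diet either, at -0.15 (SE 0.07), or -0.14 (SE 0.06) without Het_control 2, where 6.12% of all genes had groups apart. Gpcpd1, a glycerophosphodiesterase, was at 11.55, 11.55, 11.42 and 11.75 against 11.33, 10.76, 10.89 and 10.94, a difference of -0.58 (SE 0.11), with Het_HFD 1 nearest to wild type. Nr1d1, the clock repressor REV-ERB alpha, was at 12.37, 12.33, 12.37 and 12.44 against 12.17, 11.96, 11.52 and 11.74, a difference of -0.53 (SE 0.11). Arrdc3, an arrestin-related adaptor, differed by -0.60 (SE 0.13). Spp2, a secreted phosphoprotein of liver and bone, differed by -0.27 (SE 0.06), Dnmbp, a scaffold and exchange factor for Cdc42, by -0.39 (SE 0.06) and Gask1a, a Golgi-associated kinase, by -0.43 (SE 0.08). The pseudogene Adh6-ps1, whose near-identical alcohol dehydrogenase relatives may share its probes, differed by -0.39 (SE 0.08). Plcxd2, a phospholipase C relative, differed by -0.38 (SE 0.08), the focal adhesion protein Lims2 by -0.29 (SE 0.06) and Eif4e1b, a relative of the cap-binding factor, by -0.24 (SE 0.05).

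**Figure D3:**
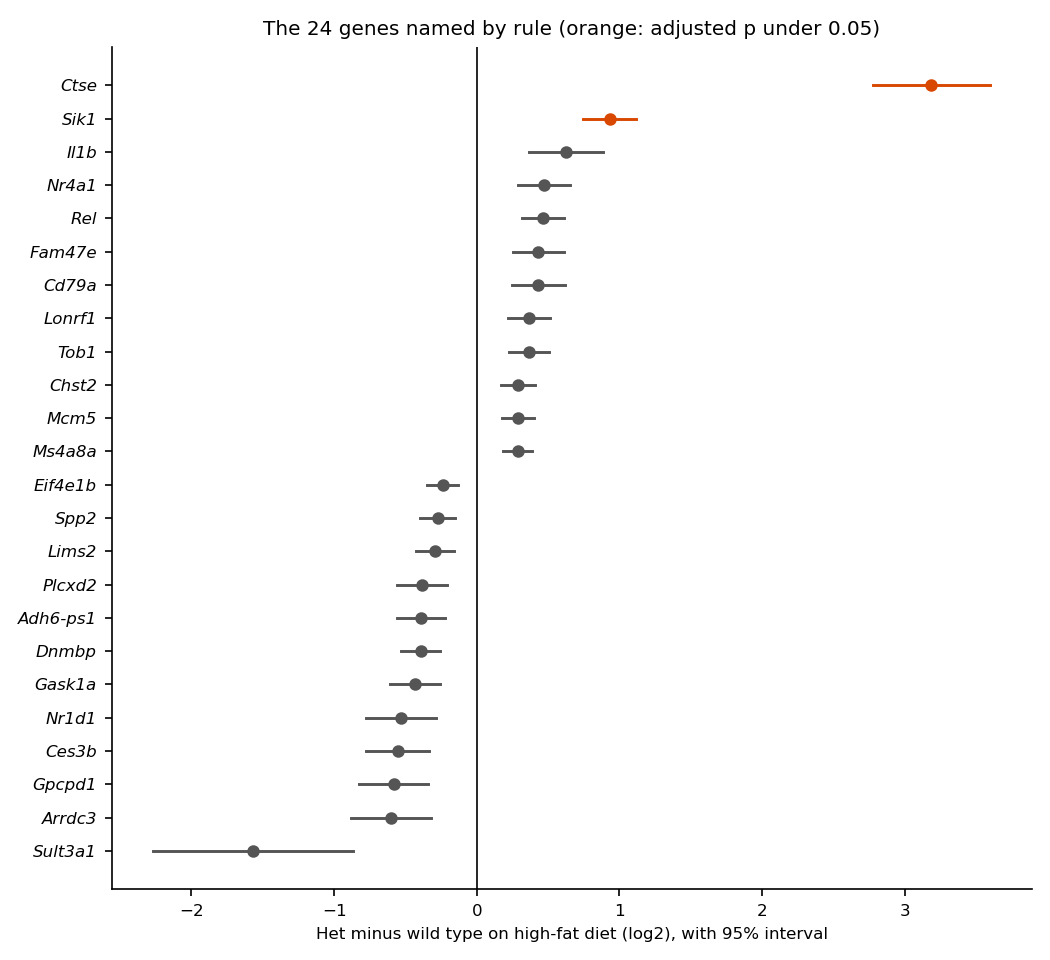
Difference between genotypes on high-fat diet (log2, horizontal axis) with its 95% interval for the 24 genes named by rule, 12 higher and 12 lower. Ctse at 3.19 and Sik1 at 0.93 (orange) are the called genes, and the other 22 were chosen because their groups do not overlap.

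Since Sik1, Nr4a1 and Rel belong to genes induced by stimuli, the 250 bases before the annotated start were searched for TGACG, the half-site bound by CREB, and its reverse complement CGTCA on the other strand, with overlapping matches counted once. RefSeq (GRCm38.p6) promoter windows were at hand for 17 of the 24 genes, and not for Ctse, Sik1, Lonrf1, Gpcpd1, Adh6-ps1, Lims2 and Eif4e1b. Some genes have several annotated starts and so several windows. The motif was in 4 of 10 windows of the higher genes (Rel, Nr4a1, Tob1 and Mcm5) and in 2 of 12 windows of the lower ones (1 each of Dnmbp and Arrdc3), while 17.8% of all 32851 windows held it. Among the fast-response genes described next, Plk3 had 2 matches and Atf3 1, and Jun and Noct had 0. Nr4a1 had 4 matches, and 3 or more were found in 0.38% of windows. The windows of Nr4a1, Rel and Tob1 are shown 5′ to 3′ on the gene's strand, with matches in capitals, so that their place and number can be seen: Nr4a1 at chr15:101266596-101266845 (plus strand), Rel at chr11:23770970-23771219 (minus strand) and Tob1 at chr11:94211204-94211453 (plus strand).
Nr4a1: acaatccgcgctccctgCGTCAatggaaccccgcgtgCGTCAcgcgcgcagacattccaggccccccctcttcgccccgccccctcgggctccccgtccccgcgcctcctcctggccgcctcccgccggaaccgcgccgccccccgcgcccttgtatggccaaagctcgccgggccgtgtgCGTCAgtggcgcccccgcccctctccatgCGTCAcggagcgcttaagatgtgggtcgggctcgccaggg
Rel: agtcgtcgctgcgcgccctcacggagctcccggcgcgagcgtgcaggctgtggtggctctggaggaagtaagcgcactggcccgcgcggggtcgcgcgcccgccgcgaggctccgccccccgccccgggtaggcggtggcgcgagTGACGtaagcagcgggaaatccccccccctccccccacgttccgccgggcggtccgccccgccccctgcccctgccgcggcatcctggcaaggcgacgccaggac
Tob1: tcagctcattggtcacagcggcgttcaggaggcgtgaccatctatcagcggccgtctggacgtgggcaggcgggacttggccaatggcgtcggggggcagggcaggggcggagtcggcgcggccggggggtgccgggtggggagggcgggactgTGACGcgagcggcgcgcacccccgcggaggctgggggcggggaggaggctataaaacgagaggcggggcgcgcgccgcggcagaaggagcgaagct
The matches of Nr4a1 lie in 2 pairs, 1 in the distal part and 1 close to the start, and Rel and Tob1 hold a single match each. A match is a letter sequence and shows no binding. The motif was chosen after these genes were known, and whether its counts differ from those of all windows was not tested.

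Other genes of fast responses were mixed. The genes on immediate early, clock and glucocorticoid lists, those of differences over 1 in size, Egfr, Fabp7, Slco1a4, Pm20d1, Avpr1b and the lipoprotein genes were, unless the rule also named them, chosen after their values were seen. Of 22 immediate early genes, 15 were above 0 and 7 below, with a median of 0.06. At an unadjusted p under 0.05, 6 were upward (27.3%) and 1 downward (4.5%), against 4.20% and 2.76% of all genes. Jun, an AP-1 subunit, was at 9.28, 9.37, 8.91 and 8.90 against 9.50, 9.37, 9.59 and 9.73, a difference of 0.43 (SE 0.11). Atf3, a stress-induced repressor, was at 8.17, 8.18, 8.19 and 8.17 against 8.37, 8.35, 8.54 and 8.43, with no overlap and a difference of 0.25 (SE 0.05). Dusp1, a phosphatase of MAP kinases, differed by 0.50 (SE 0.18), while Myc differed by -0.29 (SE 0.09). Noct, a circadian deadenylase relative, was at 10.36, 9.90, 9.91 and 9.89 against 10.35, 10.79, 10.96 and 11.00. WT_HFD 1 and Het_HFD 1 were at the same level, and the difference was 0.76 (SE 0.14, limma adjusted p = 0.266). Plk3, a stress-responsive polo-like kinase, differed by 0.57 (SE 0.13), with Het_HFD 1 at 10.68 within the wild-type range of 10.45 to 10.70. Without Het_HFD 1, limma called 5 genes higher (Ctse, Sik1, Plk3, Noct and Rel) and 1 lower (Gpcpd1).

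Clock and hormone-responsive genes were divided within their lists. Among 21 clock genes, 3 had an unadjusted p under 0.05 upward and 3 downward (14.3% each, against 4.20% and 2.76% of all genes). Rgs16, a G protein regulator with a strong daily rhythm, was at 13.13, 12.92, 12.44 and 13.04 against 12.68, 11.42, 11.83 and 11.96, a difference of -0.91 (SE 0.22, limma adjusted p = 0.437). Cry1, a clock repressor, and Nfil3, a rhythmic repressor of clock outputs, differed by 0.27 (SE 0.07) and 0.25 (SE 0.09). Sampling time of day was not given in the sources used here. Of 17 glucocorticoid-responsive genes, 5 were upward (29.4%) and 4 downward (23.5%) at an unadjusted p under 0.05, against 4.20% and 2.76% of all genes. The 4 downward, Zbtb16, Lpin1, Fkbp5 and Klf9, differed by -0.76 (SE 0.23), -0.60 (SE 0.17), -0.49 (SE 0.14) and -0.26 (SE 0.08). Of the 5 upward, Sult1e1, described below, differed by 1.73 (SE 0.63). The others, Sgk1, Dusp1, Igfbp1 and Tat, differed by 0.49 (SE 0.16), 0.50 (SE 0.18), 0.51 (SE 0.19) and 0.20 (SE 0.08). Zbtb16, a zinc finger repressor, was at 10.99, 11.10, 9.94 and 10.06 in wild type and 9.90, 9.60, 9.85 and 9.70 in heterozygotes. WT_HFD 1 and 2 were high, and WT_HFD 3 and 4, which share a title number, lay near the heterozygotes.

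Only 8 genes differed by more than 1 in size, 3 higher and 5 lower, and only Ctse among them was called. Sult1e1, the estrogen sulfotransferase, was at 5.71, 5.36, 6.37 and 5.40 against 5.36, 8.61, 8.999 and 6.77. Het_HFD 2 and 3, which share a title number, were high and Het_HFD 1 was at the lowest wild-type level, so the difference of 1.73 had an SE of 0.63 (limma adjusted p = 0.616). Cyp26a1, which breaks down retinoic acid, was at 8.12, 7.78, 7.62 and 10.83 against 10.72, 8.70, 9.69 and 9.94. WT_HFD 4 was above every heterozygous array, and the difference was 1.18 (SE 0.62). Slco1a1, a male-biased organic anion carrier, was at 8.77, 9.94, 6.91 and 6.84 against 6.82, 7.06, 6.58 and 6.72. WT_HFD 1 and 2 alone were high, a difference of -1.32 (SE 0.55, limma adjusted p = 0.688). Fabp5, a fatty acid carrier, was at 10.05, 10.90, 9.74 and 8.99 against 9.01, 9.09, 8.76 and 8.69, with WT_HFD 4 among the heterozygotes and a difference of -1.03 (SE 0.30, limma adjusted p = 0.511). Lepr, the leptin receptor, was at 9.18, 8.73, 8.60 and 9.11 against 8.59, 8.22, 7.17 and 7.52, with Het_HFD 1 just under the lowest wild-type array and a difference of -1.03 (SE 0.26, limma adjusted p = 0.449). Sult3a2, a close relative of Sult3a1, differed by -1.01 (SE 0.43), with WT_HFD 2 at 7.83 and the other 7 arrays between 4.91 and 5.75. Egfr, the epidermal growth factor receptor, which is strongly expressed in hepatocytes, differed by -0.61 (SE 0.15) without overlap of the groups.

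The largest list medians belonged to immune cells, and no member of those lists was called. Of 29 macrophage and Kupffer cell markers, 25 were above 0 and 4 below, and the median was 0.22. At an unadjusted p under 0.05, 10 were upward (34.5%, against 4.20% of all genes) and 0 downward. Ly96, the lipopolysaccharide co-receptor of Tlr4, was at 9.90, 9.30, 9.59 and 9.76 against 10.11, 10.29, 10.02 and 10.18, a difference of 0.51 (SE 0.11, limma adjusted p = 0.329). C1qb, a complement subunit made by macrophages, was at 11.17, 11.00, 11.35 and 11.24 against 11.74, 11.76, 11.56 and 11.36, a difference of 0.41 (SE 0.10). The myeloid adaptors Fcer1g and Tyrobp differed by 0.46 (SE 0.11) and 0.40 (SE 0.10). The mean level of the 29 markers was 9.36, 9.22, 9.43 and 9.66 in wild type and 9.60, 9.84, 9.58 and 9.51 in heterozygotes. Het_HFD 2 was the highest and WT_HFD 4 exceeded the other 3 heterozygous arrays, so the groups overlapped for the list as a whole. In bulk tissue, more cells of a type and more RNA per cell cannot be told apart. On the control diet the median of these markers was -0.25, or -0.18 without Het_control 2, so its sign was opposite.

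Lymphocyte and antigen presentation genes had the same array at the top. Of 21 markers of B, T and NK cells, 17 were above 0 and the median was 0.12. At an unadjusted p under 0.05, 8 were upward (38.1%, against 4.20% of all genes) and 0 downward. The 4 below 0 were Cd4 (-0.10), Gzmb (-0.08), Ighm (-0.04) and Prf1 (-0.002). Il7r, the interleukin 7 receptor, Cd79b, part of the B cell receptor, and Ncr1, an NK cell receptor, differed by 0.37 (SE 0.09), 0.22 (SE 0.06) and 0.19 (SE 0.06), each without overlap. The mean level of the 21 markers was 7.34, 7.27, 7.31 and 7.33 in wild type and 7.41, 7.60, 7.42 and 7.37 in heterozygotes. All 4 heterozygous arrays were above the wild-type ones, with Het_HFD 2 the highest. These means lay below the array medians of 8.26 to 8.32, and without detection calls they are not shown to lie above background. On the control diet the median of these markers was -0.02 with 9 above 0, or -0.11 with 8 above 0 without Het_control 2. All 9 measured genes of class II antigen presentation were above 0 on high-fat diet, with a median of 0.22, which dropped to 0.05 without Het_HFD 2. On the control diet the class II median was -0.14 with 2 of 9 above 0, both with and without Het_control 2. Cd74, the invariant chain, was at 10.51, 10.24, 10.41 and 10.37 against 10.54, 11.50, 10.53 and 10.30, and the peptide-loading chain H2-DMa was at 8.83, 8.70, 8.91 and 8.89 against 9.10, 9.87, 9.07 and 9.05. Het_HFD 2 alone was far above wild type in both, and H2-Oa and H2-Ob, chains that restrain peptide loading, differed by 0.17 (SE 0.07) and 0.13 (SE 0.08).

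Neutrophil markers had a median of 0.03, with 10 of 13 above 0, and 2 were upward and 0 downward at an unadjusted p under 0.05. Their mean level was 6.87 to 6.96 in wild type and 6.88 to 7.03 in heterozygotes. That is below the array medians of 8.26 to 8.32, and without detection calls it is not shown to lie above background. Retnlg, a neutrophil resistin relative, differed by 0.22 (SE 0.07), the gelatinase Mmp9 by 0.13 (SE 0.06), the receptor Csf3r by 0.15 (SE 0.08) and the antimicrobial peptide gene Camp by -0.12 (SE 0.06). Of 18 genes of liver injury and the tumour necrosis factor response, 17 were above 0, the median was 0.09 and 2 had an unadjusted p under 0.05, Il1b and the adhesion molecule Icam1 (0.13, SE 0.05). The chemokines Ccl2 and Ccl3 differed by 0.16 (SE 0.10) and 0.14 (SE 0.09). Acute phase genes divided, with 15 of 24 above 0, 9 below and a median of 0.02. At an unadjusted p under 0.05, 3 of 24 were upward and 3 downward. That was 12.5% each, against 4.20% and 2.76% of all genes. Saa3, an inducible serum amyloid, was at 8.74, 8.64, 9.19 and 8.84 against 8.95, 9.81, 9.88 and 8.95. Het_HFD 2 and 3 were high, and the difference was 0.55 (SE 0.21). The acid glycoprotein gene Orm2 differed by 0.52 (SE 0.18), the pentraxin Apcs by -0.32 (SE 0.10) and the inter-alpha inhibitor chain Itih3 by -0.15 (SE 0.06). Further members, chosen after their values were seen, were Saa1 (0.53, SE 0.22), Saa2 (0.52, SE 0.24), Lcn2 (0.44, SE 0.22) and Serpina3n (-0.11, SE 0.05).

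Cell cycle genes lay mostly above 0, with none called. Of 27, 23 were above 0, with a median of 0.09. At an unadjusted p under 0.05, 8 were upward (29.6%) and 1 downward (3.7%), against 4.20% and 2.76% of all genes. Plk1, a mitotic kinase, was at 7.37, 7.22, 7.24 and 7.16 against 7.53, 7.52, 7.51 and 7.58, a difference of 0.29 (SE 0.06, limma adjusted p = 0.302). The helicase subunits Mcm2 and Mcm3 differed by 0.26 (SE 0.07) and 0.19 (SE 0.06), again without overlap. The mean level of the list was 7.77, 7.71, 7.79 and 7.79 in wild type and 7.84, 7.83, 7.81 and 7.97 in heterozygotes, without overlap and with Het_HFD 4 the highest. Here too the means lay below the array medians of 8.26 to 8.32. Without WT_HFD 4 the median was 0.14, and on the control diet it was -0.14, with and without Het_control 2.

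**Figure D4:**
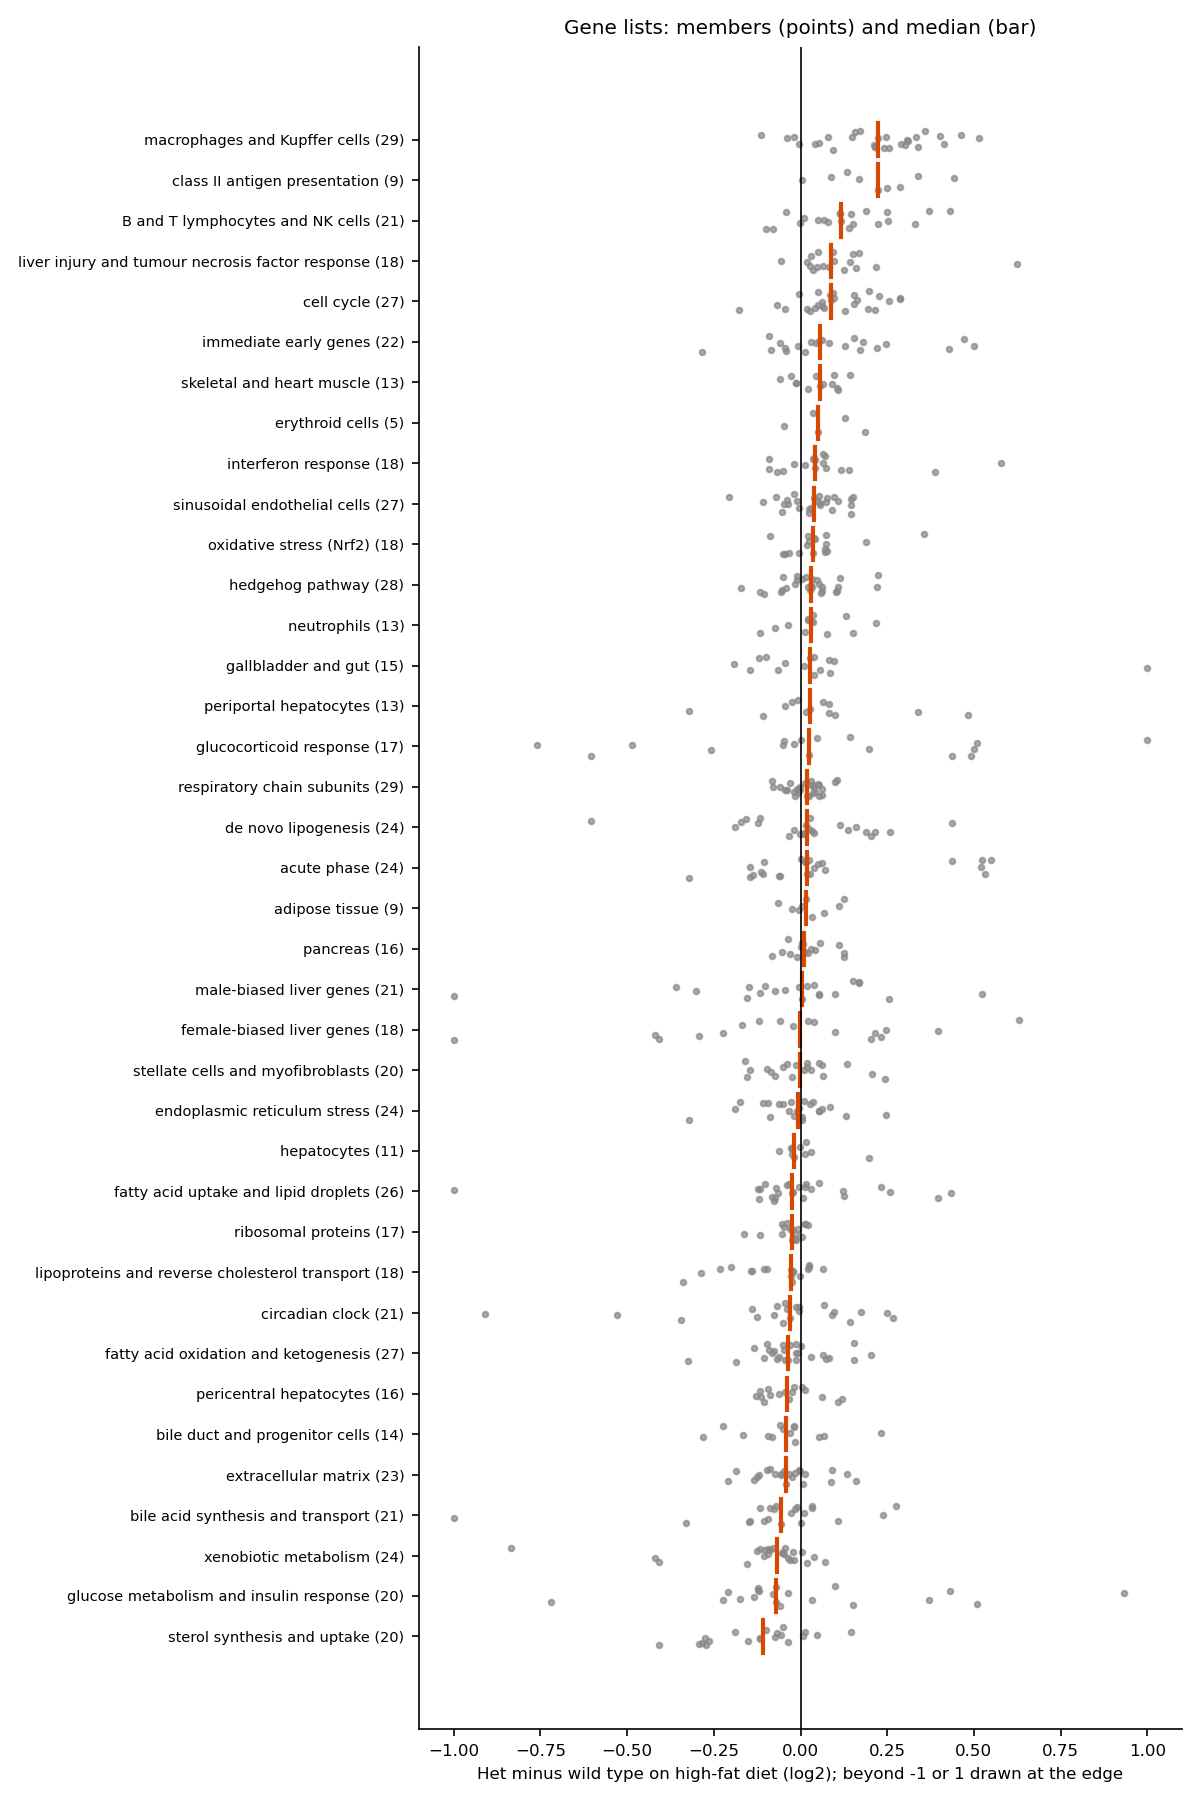
Difference between genotypes on high-fat diet (log2, horizontal axis) of the measured members of 38 gene lists (points, number of members in brackets) with each list's median (orange bar); members beyond -1 or 1 are drawn at the edge. Macrophage and class II lists have medians of 0.22, sterol synthesis has the lowest at -0.11, and the other lists lie between.

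Metabolic lists had medians near or below 0. Sterol synthesis and uptake had the lowest, -0.11, with 16 of 20 genes below 0. At an unadjusted p under 0.05, 6 were downward (30%, against 2.76% of all genes) and 0 upward. Stard4, a cholesterol transfer protein, was at 10.57, 10.63, 10.49 and 10.79 against 10.28, 10.31, 10.39 and 10.43, without overlap and with a difference of -0.27 (SE 0.07, limma adjusted p = 0.488). The pathway enzymes Idi1, Nsdhl and Lss differed by -0.41 (SE 0.14), -0.27 (SE 0.10) and -0.19 (SE 0.07). Het_HFD 2 was the lowest array for Idi1 (11.05) and Nsdhl (11.28), and the median of the list was -0.06 without it. On the control diet the median was -0.10, or -0.04 without Het_control 2. Of 18 genes of lipoproteins and reverse cholesterol transport, 14 were below 0 and 4 were downward at an unadjusted p under 0.05. These were the sterol exporters Abcg5 (-0.20, SE 0.06) and Abcg8 (-0.29, SE 0.06), the phospholipid transfer protein Pltp (-0.23, SE 0.08) and the lipase inhibitor Angptl4 (-0.34, SE 0.14).

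Glucose and insulin response genes divided. Of 20, 4 were upward and 4 downward at an unadjusted p under 0.05, 1 was called (Sik1), and the median of -0.07 moved to 0.005 without WT_HFD 1. G6pc, the glucose 6-phosphatase that releases glucose, was at 13.00, 12.90, 12.79 and 13.19 against 13.22, 13.33, 13.33 and 13.48, a difference of 0.37 (SE 0.08, limma adjusted p = 0.391). Ppp1r3b, a glycogen-targeting phosphatase subunit, was at 10.13, 10.25, 9.71 and 9.87 against 10.29, 10.39, 10.54 and 10.46, a difference of 0.43 (SE 0.11). In both, every heterozygous array was above every wild-type array. Socs2, a feedback inhibitor of growth hormone signalling, differed by -0.72 (SE 0.26), with overlapping groups.

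Fat synthesis genes had a median of 0.02 over 24 members. Lpin1, a phosphatidate phosphatase of triglyceride synthesis, was at 12.45, 12.33, 11.53 and 11.75 against 11.31, 11.53, 11.31 and 11.49. WT_HFD 1 and 2 were high, as for Zbtb16. Mogat1 and Agpat2, acyltransferases of the same pathway, differed by 0.44 (SE 0.14) and 0.19 (SE 0.06), and the elongase Elovl5 by -0.12 (SE 0.07). Among 26 genes of fatty acid uptake and lipid droplets the median was -0.02. Cd36, the fatty acid translocase, was at 10.85, 10.66, 11.40 and 11.74 against 11.49, 11.30, 11.67 and 11.76, with overlap and a difference of 0.40 (SE 0.20, limma adjusted p = 0.745). G0s2, a lipase inhibitor, differed by 0.43 (SE 0.13) and the droplet coat protein Plin2 by -0.10 (SE 0.05). Of 27 fatty acid oxidation and ketogenesis genes, 19 were below 0, with a median of -0.04 and 1 at an unadjusted p under 0.05. The carnitine transferase Cpt1a, the isomerase Eci2, the thioesterase Acot2 and the acetyltransferase Crat differed by -0.08 (SE 0.05), -0.19 (SE 0.08), 0.20 (SE 0.09) and 0.15 (SE 0.09).

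Xenobiotic metabolism genes were mostly below 0, 20 of 24, with a median of -0.07 and 2 at an unadjusted p under 0.05. Cyp2c54, a cytochrome P450, was at 12.32, 12.68, 11.98 and 12.15 against 11.50, 11.63, 10.84 and 11.81, a difference of -0.84 (SE 0.19, limma adjusted p = 0.391). Its close relatives may share probes with it. Cyp3a44 and Cyp2c50 differed by -0.41 (SE 0.13) and -0.15 (SE 0.07), and the xenobiotic receptor Nr1i3 by -0.13 (SE 0.06). On the control diet the median of this list was -0.13, or -0.06 without Het_control 2. Of 21 bile acid genes, 2 were upward and 2 downward at an unadjusted p under 0.05, the latter being the carriers Slco1a1 and Slco1a4 (-0.33, SE 0.10). Male-biased and female-biased liver genes had medians of 0.004 and -0.0004, with 2 of 21 and 4 of 18 downward and 0 and 2 upward at an unadjusted p under 0.05. Respiratory chain subunits (29) and ribosomal proteins (17) had medians of 0.02 and -0.02 and no member with an unadjusted p under 0.05.

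Markers of scar-forming, endothelial and bile duct cells had medians between -0.04 and 0.04. Of 20 stellate cell and myofibroblast markers, 10 were above 0 and 10 below, with a median of -0.002. The fibroblast receptor Pdgfra differed by -0.15 (SE 0.06), the pericyte marker Rgs5 by 0.24 (SE 0.11), the glycoprotein Reln by -0.16 (SE 0.07) and the globin Cygb by 0.13 (SE 0.07). Of 23 extracellular matrix genes, 17 were below 0, with a median of -0.04 and 1 at an unadjusted p under 0.05 in each direction. Collagen chains Col6a3 and Col1a2 differed by -0.19 (SE 0.06) and -0.13 (SE 0.07), the protease inhibitor Timp1 by 0.13 (SE 0.05) and the fibrogenic cytokine Tgfb1 by 0.16 (SE 0.07). Of 27 sinusoidal endothelial markers, 17 were above 0, with a median of 0.04 and the cadherin Cdh5 (0.15, SE 0.06) at an unadjusted p under 0.05. The endothelial genes Plvap, Mmrn2 and Lyve1 differed by 0.11 (SE 0.05), 0.15 (SE 0.09) and -0.21 (SE 0.12). Of 14 bile duct and progenitor markers, 11 were below 0, with a median of -0.04. The mucin Muc1 differed by -0.17 (SE 0.07), the adhesion molecule Epcam by -0.22 (SE 0.12), the keratin Krt19 by -0.08 (SE 0.05) and the stem cell marker Prom1 by 0.23 (SE 0.20). Of the 11 hepatocyte markers, Tat had an unadjusted p under 0.05 upward, and Apob, Fgb and Hnf4a differed by -0.02, -0.06 and 0.03. No marker list of neighbouring organs or blood had a called gene other than Ctse. Medians were 0.01 for pancreas (16 genes), 0.01 for adipose tissue (9), 0.06 for skeletal and heart muscle (13) and 0.05 for erythroid cells (5), with Tnnt3, a muscle troponin (0.14, SE 0.06), the lone member of these at an unadjusted p under 0.05.

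The remaining lists are given by counts. Interferon response genes had a median of 0.04 with 13 of 18 above 0 and 1 at an unadjusted p under 0.05, and the median on the control diet was -0.25, or -0.18 without Het_control 2. Oxidative stress genes under Nrf2 had a median of 0.04 with 13 of 18 above 0 and 1 at that level. Endoplasmic reticulum stress genes had a median of -0.01 with 11 of 24 above 0, and 1 upward and 2 downward. Pericentral hepatocyte genes had a median of -0.04 over 16 genes, and periportal genes a median of 0.03 over 13 genes with 2 upward. Over all 38 lists, 697 distinct genes were measured and 2 were called. The 2, Ctse and Sik1, were the only called genes of all 19938 (0.0100%). The lists were chosen with earlier results of these data known, so this count is no finding about them.

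On the control diet, none of 19938 genes (0.00%) was called between the genotypes by limma, with 1356 at an unadjusted p under 0.05 (6.80%), and its 8 arrays are separate from those on high-fat diet. Without Het_control 2, 1596 genes had an unadjusted p under 0.05 and 1 was called, Fabp7, a fatty acid carrier, at -0.66 (SE 0.06, limma adjusted p = 0.0144). Fabp7 was at 9.73, 9.62, 9.73 and 10.42 in wild type and 10.27, 10.42, 10.23 and 10.42 in heterozygotes on high-fat diet, a difference of 0.46 (SE 0.14, limma adjusted p = 0.538), or 0.64 without WT_HFD 4 (0.00553). Fabp7 on the control diet was at 9.96, 9.95, 9.98 and 10.11 in wild type and 9.29, 8.21, 9.36 and 9.36 in heterozygotes, all of the latter lower. With Het_control 2, the lowest of these at 8.21, Fabp7 was not called on that diet. The difference between diets for Fabp7 was 1.399 (SE 0.30, limma adjusted p = 0.240), or 1.12 without Het_control 2 (0.188). Across genes, which are not independent replicates, the genotype differences on the 2 diets correlated at Pearson r = 0.04 and Spearman rho = 0.05, and at -0.04 and -0.05 without Het_control 2. The test of the difference between diets called no gene either (0.00%). There, 1621 genes had an unadjusted p under 0.05 (8.13%), and the smallest limma adjusted p was 0.24; without Het_control 2 none was called either, with 1709 genes at an unadjusted p under 0.05 and a smallest adjusted p of 0.188. Of the 22 uncalled named genes, 12 had the same sign on the control diet, or 9 without Het_control 2. Rel differed by 0.46 on high-fat and -0.36 on control diet, or -0.23 without that array. Cd79a differed by 0.43 and -0.29, or -0.34 without it. Nr4a1 and Il1b on that diet were at 0.01 and 0.02, or -0.02 and 0.04 without it. Sult3a1, Arrdc3 and Nr1d1 were at -0.26, -0.36 and -0.14 on the control diet, or -0.09 (SE 0.25), -0.33 (SE 0.13) and -0.19 (SE 0.15) without it. The limma adjusted p-values of the interaction for these 22 ran from 0.24 to 0.839, or 0.188 to 0.769 without it, so no gene was shown to respond to genotype differently on the 2 diets.

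**Figure D5:**
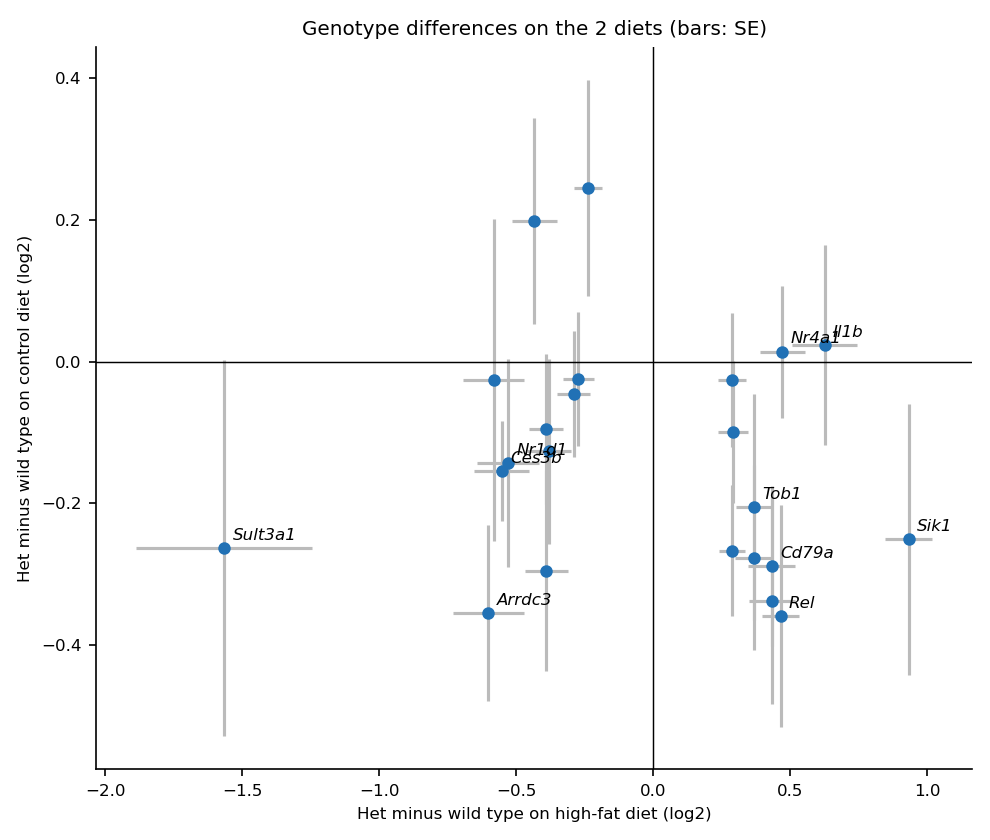
Difference between genotypes on high-fat diet (horizontal axis, log2) against that on control diet (vertical axis, log2) for 23 of the 24 named genes, without Ctse, which lies outside the range at 3.19 and 1.76; bars are standard errors and Het_control 2 is included. Sik1 is at 0.93 and -0.25, and Sult3a1, at the far left, is negative on both diets.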

How the data were processed

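Liver RNA of 16 mice, 4 in each group per the study's design, was hybridised to Affymetrix mouse gene arrays (MoGene ST). The deposited log2 values came from RMA, and the submitters' processing notes name Affymetrix Expression Console, without versions. RMA subtracts background, equalises the arrays' distributions and summarises probes, which compresses low levels and would hide a shift shared by all genes. Array number, not read depth, limits the precision.

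Of 35556 probe sets, 21789 carried 1 symbol in the platform annotation, 1621 several and 12146 none. For each of 19938 genes the probe set with the highest mean over 16 arrays was used (999 genes had several), and 19856 symbols matched RefSeq. The 8 high-fat arrays were fitted on their own with limma 3.58.1 (lmFit, eBayes) in R 4.3.3, with Benjamini-Hochberg adjustment over all genes. The threshold for a call was an adjusted p of 0.05. Control-diet arrays were fitted likewise, and the interaction on all 16. The random block used statmod 1.5.0. Tested on simulated data for the high-fat comparison (19938 genes, 200 changed), the fit recovered 99% of changes of 1 log2 unit and 100% of 2, with 7 unchanged genes called. Noise was drawn independently for each gene and array. Changes under 1 log2 unit, the size of most differences given above, were not simulated, so their recovery is not known. The comparison, gene lists and tests were chosen with earlier results of these data known.

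Genes were named by rule: measured hedgehog genes; called genes with groups that do not overlap; up to 12 genes a direction, filled by smallest p among those not overlapping; and up to 4 members by p of each discussed list. Clone and predicted symbols were left out. Others were named after their values were seen. Alternatives were another set of arrays, moderation, filter, normalization, probe set choice, a block on the number within the titles, array weights and leaving out each array.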

Additional observations from a re-analysis of the deposited data

Results flagged for a closer look

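In groups of 4 arrays, Dixon's test at its 95% level marked 25 of 336 gene groups in which 1 array lay far from the other 3; by its construction chance marks about 1 in 20 groups. The marked arrays were WT_HFD 1 (4 groups), 2 (2), 3 (5) and 4 (4), and Het_HFD 1 (3), 2 (4), 3 (1) and 4 (2).

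WT_HFD 1 was high for Noct at 10.36 (others 9.89 to 9.91), Igfbp1 at 10.62 (9.84 to 9.93) and Bcl2 at 9.01 (8.80 to 8.84), and low for Cyp3a44 at 11.55 (11.94 to 11.99). WT_HFD 2 was high for Crat at 11.48 (11.08 to 11.11) and low for Ncr1 at 6.05 (6.17 to 6.20). WT_HFD 3 was high for Hhat at 7.95 (7.74 to 7.77), Foxl1 at 7.72 (7.44 to 7.48), Nkx2-2 at 7.52 (7.38 to 7.39) and Adipoq at 6.25 (6.04 to 6.07), and low for Hnf4a at 12.46 (12.65 to 12.69). WT_HFD 4 was high for Cyp26a1 at 10.83 (7.62 to 8.12) and Fabp7 at 10.42 (9.62 to 9.73), and low for Disp1 at 9.17 (9.51 to 9.53) and Scube2 at 7.93 (8.09 to 8.11).

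Het_HFD 1 was low for Tob1 at 12.32 (12.52 to 12.55), Plk3 at 10.68 (11.30 to 11.33) and Car3 at 13.77 (13.84 to 13.86). Het_HFD 2 was high for H2-DMa at 9.87 (9.05 to 9.10), H2-Oa at 7.62 (7.36 to 7.38) and Cd79b at 8.69 (8.49 to 8.51), and low for Nsdhl at 11.28 (11.72 to 11.79). Het_HFD 3 was high for Mmrn2 at 9.71 (9.61 to 9.62). Het_HFD 4 was high for Plin2 at 12.54 (12.47 to 12.48) and low for Icam1 at 9.42 (9.49 to 9.50).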

How the results depend on the processing

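The 2 genes called higher became 1 (Ctse) with all 16 arrays in 1 fit, with 15 arrays (without Het_control 2) and with all probe sets, and 14 with the number within the titles as a random block; with 1 array left out the count was 2 to 5. The 0 genes called lower became 8 under the block and 0 to 1 with 1 array left out. The block's estimated correlation was negative, at -0.476, and each number held animals of 1 genotype. Sik1 lost its call with 16 arrays (limma adjusted p = 0.137), 15 arrays (0.053) and all probe sets (0.0547), over a range of 0.000177 to 0.137. Without WT_HFD 4, limma also called Fabp7, at 0.64. The interaction called 0 genes throughout. Of 168 genes, 157 kept their sign in all 18 alternatives. Those that turned were near 0: Gli2 (-0.0091 under the block, -0.016 to 0.046 with 1 array left out), Disp1 (-0.017 centred on medians, -0.0071 averaging probe sets, -0.059 with array weights, -0.085 to 0.040), Gpr161 (-0.0057 centred, -0.0073 under the block, -0.022 to 0.049), and, with 1 array left out, Hhat (-0.031 to 0.037), Boc (-0.033 to 0.013), Kif7 (-0.083 to 0.012), Stk36 (-0.012 to 0.055), Spop (-0.11 to 0.043), Foxf1 (-0.059 to 0.020), Foxl1 (-0.0073 to 0.094) and Hnf4a (-0.025 to 0.053). The causes were not tested. Of 38 list medians, 4 moved by over 1 SD under some alternative: hedgehog (0.003 without Het_HFD 1), glucose (0.005 without WT_HFD 1), cell cycle (0.14 without WT_HFD 4), and gallbladder and gut (-0.07 among brighter genes only). No paired analysis was possible because the replicate numbers follow accession order and pair no animals.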
